A study of Mus musculus with 3 samples.

Results

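The 9 genes described here are the sarcomeric myosin heavy chain genes Myh3, Myh8, Myh2, Myh1, Myh4, Myh13, Myh7 and Myh7b, and 2310065F04Rik, the long noncoding RNA linc-MYH. They were chosen by gene symbol, and they are 9 of the 23238 symbols in the count data. All 9 were among the 13169 genes with a CPM (counts per 1000000 counts of the library) of 1 or more in at least 1 library, and each of them was above that level in every library. Other heavy chains are left out of every sum below, which covers these 8 heavy chains alone.

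The cells were c2c12, a permanent mouse line of myoblasts that stop dividing and join into myotubes when serum is withdrawn. Every culture was in its second day of myogenic induction, and the induction is common to all 3 groups. The groups are named for their substrates: TCP was the tissue culture plate, GelMA was a hydrogel of methacrylated gelatin, and GelMA-PSS was a 15% hydrogel of the same material carrying 1% of the sulfonated polymer PSS (poly sodium 4-styrenesulfonate). Each group is a single library of a single cell line, with 87071144 counts for GelMA, 119799095 for TCP and 192171443 for GelMA-PSS, so there is no replicate error and no test between substrates. The intervals given below cover counting error only, and they would be wider if the 2 mates of a read pair had each been counted, which is not known.

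Myosin heavy chain is the motor of the thick filament, and skeletal muscle uses a series of genes for it. Developing and regenerating fibres make the embryonic chain (Myh3) and the perinatal chain (Myh8), adult fast fibres make the IIa (Myh2), IIx (Myh1) and IIb (Myh4) chains, and slow fibres and the heart make the beta chain (Myh7). Most of these genes stand in a row on 1 chromosome with linc-MYH among them, which is a noncoding RNA known from fast fibres.

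On the mouse assembly GRCm38 the row occupies 293 kb of chromosome 11, at chr11:67078300-67371586, and its 6 heavy chain genes are on the plus strand. Myh3 comes first (chr11:67078300-67102291), followed by Myh2 (chr11:67171027-67197517), Myh1 (chr11:67200052-67224575), Myh4 (chr11:67238029-67260446), Myh8 (chr11:67277124-67308634) and Myh13 (chr11:67321658-67371586). 2310065F04Rik lies between Myh3 and Myh2 on the minus strand (chr11:67112461-67120080), overlaps neither of them, and has no coding sequence. Myh7 is on the minus strand of chromosome 14 (chr14:54970684-54994626), and Myh7b is on the plus strand of chromosome 2 (chr2:155611212-155634307). The transcripts of the heavy chains are 6.02 to 6.23 kb long with 5805 to 5826 coding bases, against 2.72 kb for 2310065F04Rik.

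The promoter sequences show which of these genes resemble each other outside the coding sequence. RefSeq (GRCm38.p6) held a promoter for all 9 genes, and the 250 bases before the start given there were compared for shared runs. The windows of Myh2, Myh1, Myh4 and Myh8 are printed with capitals for the runs of 14 or more bases that at least 3 of the heavy chain genes have in common, and the windows of Myh3 and 2310065F04Rik, which start the row and have no such run, are printed for comparison. The windows are chr11:67170777-67171026 for Myh2, chr11:67199852-67200101 for Myh1, chr11:67237562-67237811 for Myh4, chr11:67276874-67277123 for Myh8 and chr11:67078050-67078299 for Myh3, all read on the plus strand, and chr11:67120081-67120330 for 2310065F04Rik, read on the minus strand.
Myh2: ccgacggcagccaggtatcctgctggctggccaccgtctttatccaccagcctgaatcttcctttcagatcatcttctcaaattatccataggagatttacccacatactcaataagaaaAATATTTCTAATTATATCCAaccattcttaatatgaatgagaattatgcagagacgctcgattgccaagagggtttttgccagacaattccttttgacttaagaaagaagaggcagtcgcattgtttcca
Myh1: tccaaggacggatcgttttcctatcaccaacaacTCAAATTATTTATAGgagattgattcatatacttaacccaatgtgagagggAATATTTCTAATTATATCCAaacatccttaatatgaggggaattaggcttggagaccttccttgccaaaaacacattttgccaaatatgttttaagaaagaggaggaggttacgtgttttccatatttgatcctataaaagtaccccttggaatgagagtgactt
Myh4: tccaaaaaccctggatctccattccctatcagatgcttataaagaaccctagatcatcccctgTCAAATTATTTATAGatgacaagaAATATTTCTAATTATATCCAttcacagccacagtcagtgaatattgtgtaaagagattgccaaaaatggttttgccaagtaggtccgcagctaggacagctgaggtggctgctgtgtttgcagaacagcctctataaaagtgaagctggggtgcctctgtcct
Myh8: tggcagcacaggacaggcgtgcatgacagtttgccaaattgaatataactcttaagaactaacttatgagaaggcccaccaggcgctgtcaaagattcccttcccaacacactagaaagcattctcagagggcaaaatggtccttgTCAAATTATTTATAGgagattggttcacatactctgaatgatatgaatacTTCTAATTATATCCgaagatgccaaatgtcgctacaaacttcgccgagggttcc
Myh3: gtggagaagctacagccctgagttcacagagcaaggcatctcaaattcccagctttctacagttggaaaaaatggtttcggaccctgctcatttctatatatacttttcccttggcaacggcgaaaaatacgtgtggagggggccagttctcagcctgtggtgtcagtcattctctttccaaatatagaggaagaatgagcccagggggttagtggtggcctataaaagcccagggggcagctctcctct
2310065F04Rik: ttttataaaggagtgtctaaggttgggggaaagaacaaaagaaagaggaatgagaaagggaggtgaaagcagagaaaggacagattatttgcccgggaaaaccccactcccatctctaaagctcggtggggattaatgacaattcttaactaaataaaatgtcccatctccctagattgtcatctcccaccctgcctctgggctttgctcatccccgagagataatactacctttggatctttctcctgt

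The 20-base run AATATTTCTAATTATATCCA is present in all 3 adult fast promoters, from 130 to 111 bases before the start of Myh2, from 165 to 146 before Myh1 and from 163 to 144 before Myh4. Its inner 14 bases, TTCTAATTATATCC, are also in the perinatal Myh8, and among all 32851 RefSeq promoters of mouse no more than these 4 hold them. A 15-base run, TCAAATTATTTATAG, is shared by Myh1, Myh4 and Myh8, at 216 to 202, 187 to 173 and 104 to 90 bases before the start, and is in 3 of the 32851 promoters. Motifs were searched in RefSeq's whole windows of 300 bases, which run on past the start, and shares over all promoters refer to these. The 15-base run contains a match to the motif of MEF2, a factor of muscle genes, which 3.19% of all promoters have on either strand, and the match overlaps TATAAA on the other strand. E-boxes (CANNTG), the letters bound by MyoD and myogenin, were found on either strand in the windows of Myh3, Myh4, Myh8, Myh13, Myh7 and Myh7b and in 72.3% of all promoters, and not in those of Myh2, Myh1 and 2310065F04Rik. These matches describe the letters in RefSeq's windows, whose start is not that of the GENCODE positions given above for Myh1, Myh4, Myh13 and Myh7b or for 1 of the windows of Myh7, and no binding was measured.

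The level of all 9 genes was lowest in GelMA-PSS and highest in TCP, with GelMA between them, an order found for 21.2% of all tested genes, while 39.3% had their lowest level in GelMA-PSS whatever the order of the controls. In 7 of the 9 genes, all but Myh2 and 2310065F04Rik, each of these steps was 1.5-fold or more, against 0.463% of all genes, before the correction for transcript length described below. Against TCP the GelMA-PSS levels were lower by 3.35-fold for Myh3 to 6.22-fold for Myh4, and against GelMA by 1.79-fold for Myh13 to 4.17-fold for 2310065F04Rik. Folds of the 9 genes are ratios of scaled CPM, while calls and log2 ratios are on the scale of CPM + 1, which understates the change of low genes. In bulk RNA, fewer cells that make myosin and less myosin RNA in each such cell cannot be told apart.

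**Figure D1:**
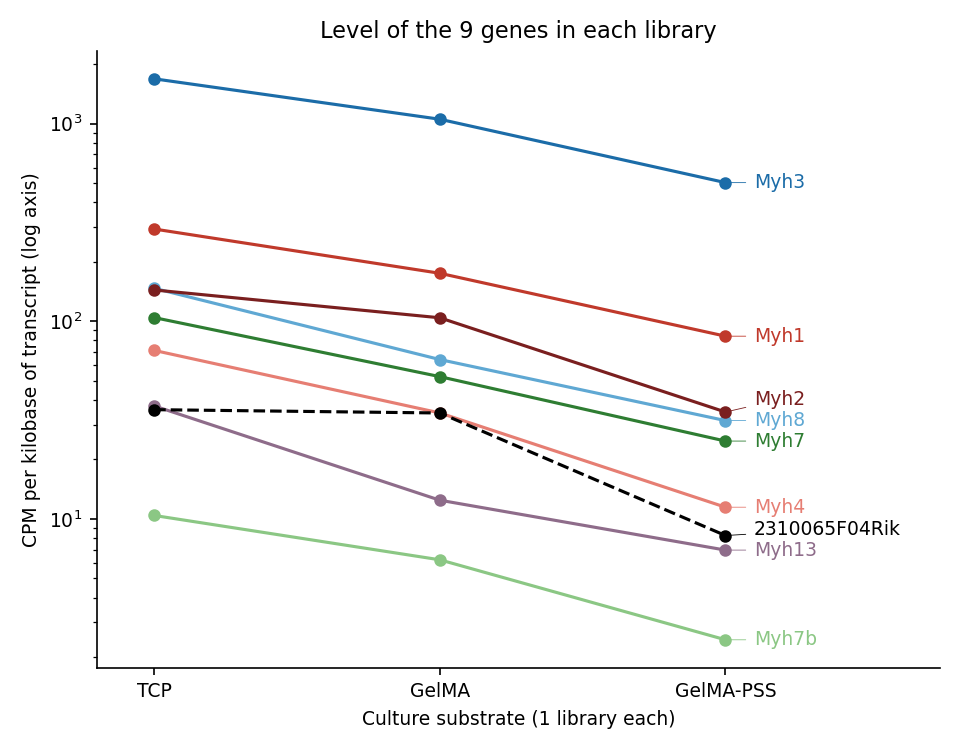
Level of each of the 9 genes in the TCP, GelMA and GelMA-PSS libraries, in CPM per kilobase of transcript on a log axis, with 1 point per library. Each gene has its highest point in TCP and its lowest in GelMA-PSS, from 1688 for Myh3 in TCP down to 2.45 for Myh7b in GelMA-PSS.

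Myh3, the embryonic chain, was by far the most abundant of the 9 genes in each library. Its level was 10182 CPM in TCP, 6355 CPM in GelMA and 3037 CPM in GelMA-PSS, and among all genes by CPM it ranked at place 2, 4 and 21. The GelMA-PSS library was 2.09-fold lower than GelMA and 3.35-fold lower than TCP, and GelMA was 1.60-fold lower than TCP. Of the 9 genes Myh3 had the smallest fold between GelMA-PSS and TCP.

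Myh8, the perinatal chain, was at 904 CPM in TCP, 394 CPM in GelMA and 193 CPM in GelMA-PSS. Here the step between the controls was the larger of the pair of steps, 2.30-fold, against 2.04-fold (counting interval 2.01 to 2.07) from GelMA to GelMA-PSS. Of the genes past 2-fold in the latter comparison it was the nearest to the threshold.

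Among the adult fast chains, Myh1 (IIx) had the highest level and the smallest folds between GelMA-PSS and the controls. Myh1 was at 1783 CPM in TCP, 1065 CPM in GelMA and 511 CPM in GelMA-PSS, 2.08-fold lower than GelMA and 3.49-fold lower than TCP. Myh2 (IIa) was at 877, 634 and 211 CPM in TCP, GelMA and GelMA-PSS. Its controls were close to each other, with GelMA 1.38-fold lower than TCP, while GelMA-PSS was 3.00-fold lower than GelMA. Myh4 (IIb), the chain of the fastest fibres, was at 429, 207 and 69.0 CPM. It was also 3.00-fold lower in GelMA-PSS than in GelMA, and its controls differed by 2.07-fold.

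Myh13, the chain known from the muscles of the eye and larynx, was at 226 CPM in TCP, 75.4 CPM in GelMA and 42.2 CPM in GelMA-PSS. It had the largest difference between the controls of the 9 genes, 3.00-fold, and the smallest between GelMA-PSS and GelMA, 1.79-fold, which is just outside the 2-fold threshold. Against TCP it was 5.37-fold lower in GelMA-PSS.

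Of the slow chains, Myh7 was at 651, 327 and 154 CPM in TCP, GelMA and GelMA-PSS, 2.12-fold lower than GelMA and 4.22-fold lower than TCP. Myh7b, an ancient relative of Myh7 that hosts a muscle microRNA, was the least abundant heavy chain at 64.2, 38.3 and 15.1 CPM, with 2730 counts in the GelMA-PSS library. Its fold against GelMA was 2.54 (counting interval 2.41 to 2.67). Neither gene is in the row on chromosome 11, and their folds against TCP lay inside the range of the genes that are.

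The noncoding RNA had a pattern of its own. 2310065F04Rik was at 97.3 CPM in TCP and 93.6 CPM in GelMA, which is 1.04-fold (counting interval 1.01 to 1.07), and at 22.4 CPM in GelMA-PSS. The controls thus lay together and the GelMA-PSS library lay 4.17-fold (4.02 to 4.33) below GelMA and 4.34-fold below TCP, whereas each heavy chain differed between the controls by 1.38-fold or more.

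Past the 2-fold threshold, 8 of the 9 genes were lower in GelMA-PSS than in GelMA, where 2.33% of all tested genes were, and Myh13 was the exception. All 9 were lower than TCP by 2-fold or more, against 3.13% of all genes, and 8 were lower than both controls, against 1.16%. Between the controls, Myh8, Myh4 and Myh13 were lower in GelMA than in TCP by 2-fold or more, against 0.296% of all genes, with Myh7 just outside at 1.99-fold (counting interval 1.96 to 2.02, which holds the threshold). None of the 9 was higher by 2-fold in any of these comparisons, where 1.77% of all genes were higher than GelMA, 3.72% higher than TCP and 1.37% higher than both, and 0.706% were higher in GelMA than in TCP. For the 9 genes the median of the log2 ratios came to -1.08 for GelMA-PSS to GelMA, -2.07 for GelMA-PSS to TCP and -0.74 for GelMA to TCP, while the medians over all tested genes were 0.03, 0.04 and -0.01.

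**Figure D2:**
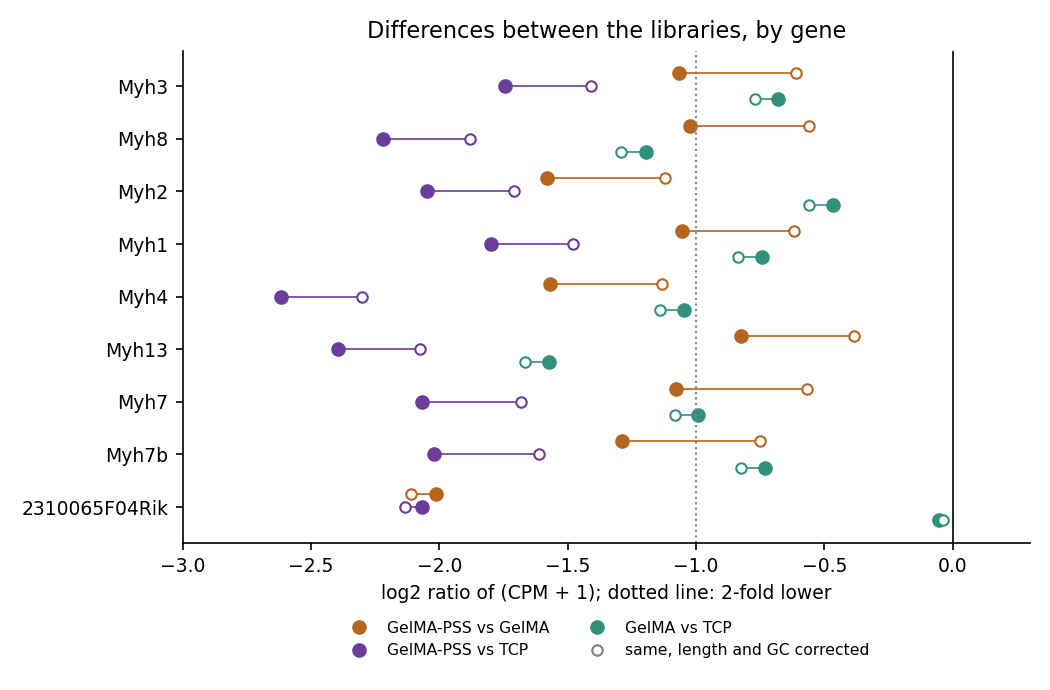
Log2 ratio of CPM + 1 for the 9 genes in the 3 comparisons of substrates, with the 2-fold threshold as a dotted line and, in open symbols, the ratio after correction for transcript length and GC content. Against TCP all 9 genes are past the threshold, and against GelMA Myh13 alone is inside it before the correction.

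Transcript length moved with the ratios in this series and touches the heavy chains, which are long. Over the 13054 tested genes with an annotated transcript, the rank correlation (Spearman) of length with the ratio was -0.66 for GelMA-PSS to GelMA, -0.50 for GelMA-PSS to TCP and 0.21 for GelMA to TCP. Genes within a library are not independent, and these values only describe the trend. In the length bin of the 652 genes around 5.84 kb, next to the heavy chains, the median of the log2 ratios came to -0.39 for the comparison with GelMA and -0.29 for that with TCP. The heavy chains had values of -0.82 to -1.58 and of -1.75 to -2.62 in these comparisons. 2310065F04Rik, at 2.72 kb, had -2.01 and -2.07.

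Subtracting the trend with length and GC content left every one of the 9 genes lower in GelMA-PSS, but took most heavy chains across the threshold against GelMA. There, 3 genes were still past 2-fold, Myh2 at -1.12, Myh4 at -1.13 and 2310065F04Rik at -2.11 on the log2 scale, against 1.2% of all genes. Myh3 came to -0.61, Myh1 to -0.62, Myh8 to -0.56, Myh7 to -0.57, Myh7b to -0.75 and Myh13 to -0.38. Against TCP all 9 remained past the threshold, from -1.41 for Myh3 to -2.30 for Myh4, where 2.41% of all genes were. Against both controls the corrected count was 3, with 0.628% of all genes. Between the controls 4 genes were past it, Myh8, Myh4, Myh13 and Myh7, against 0.26% of all genes. Each step from TCP to GelMA to GelMA-PSS was 1.5-fold or more in 4 genes, Myh3, Myh1, Myh4 and Myh7b, against 0.452% of all genes. None of the 9 was higher by 2-fold after the correction, where 0.666% of all genes were higher than GelMA, 2.01% higher than TCP, and 0.651% higher in GelMA than in TCP. What lies behind the trend with length was not tested.

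**Figure D3:**
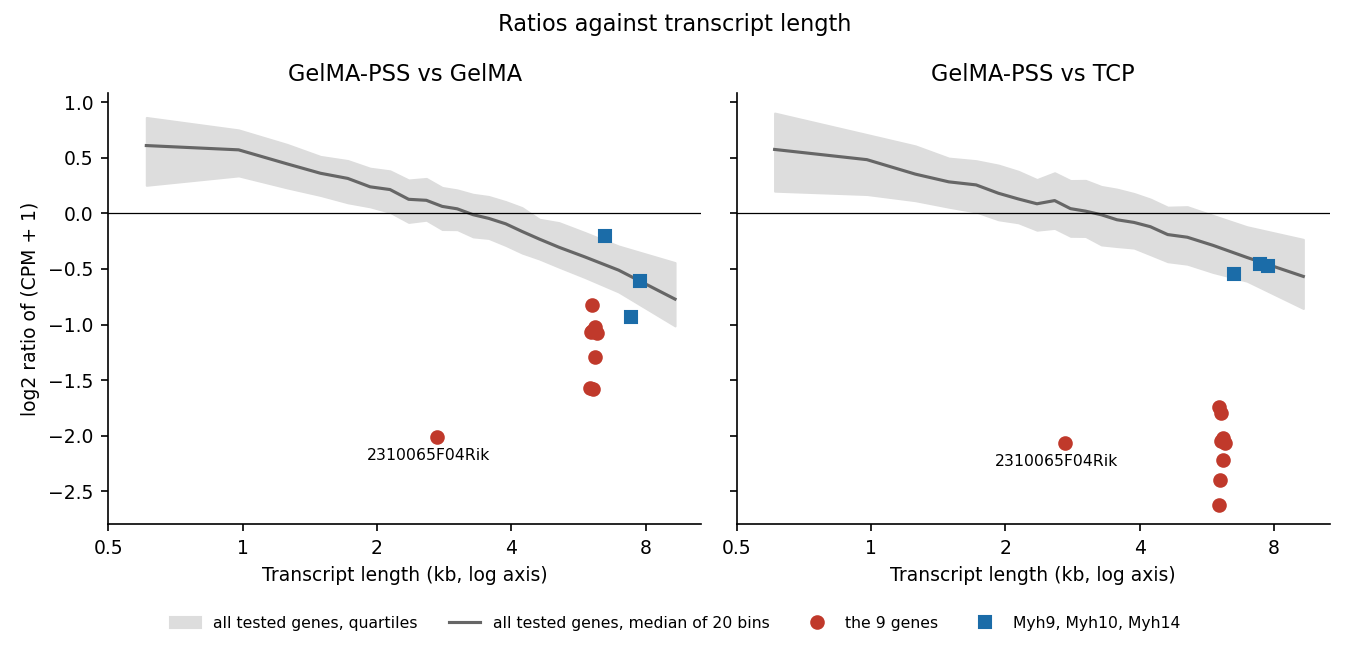
Log2 ratio of CPM + 1 against transcript length in kilobases on a log axis, for GelMA-PSS against GelMA (left) and against TCP (right). The grey line and band are the median and quartiles of all tested genes in 20 bins of length. The 9 genes lie below the band in both panels, with 2310065F04Rik the farthest below the line on the left. Of the nonmuscle chains Myh10 is near the line in both, while on the left Myh9 at -0.93 lies below it and Myh14 at -0.21 above it.

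Shares within a library use no scaling between libraries, and the 8 heavy chains are so alike in length that length hardly enters them. Summed, they were at 15116 CPM in TCP, 9095 CPM in GelMA and 4233 CPM in GelMA-PSS, or 1.54%, 0.949% and 0.399% of all counts. Myh3 made up 67.4% of the sum in TCP (exact binomial interval 67.3 to 67.4), 69.9% in GelMA (69.8 to 70.0) and 71.7% in GelMA-PSS (71.6 to 71.8). Its share was thus highest where the sum was lowest, although the range was narrow. Together the developmental chains Myh3 and Myh8 were at 73.3%, 74.2% and 76.3%, the adult fast chains Myh2, Myh1 and Myh4 at 20.4%, 20.9% and 18.7%, and the slow chains Myh7 and Myh7b at 4.73%, 4.02% and 4.00%. The makeup was therefore mostly embryonic on each substrate.

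**Figure D4:**
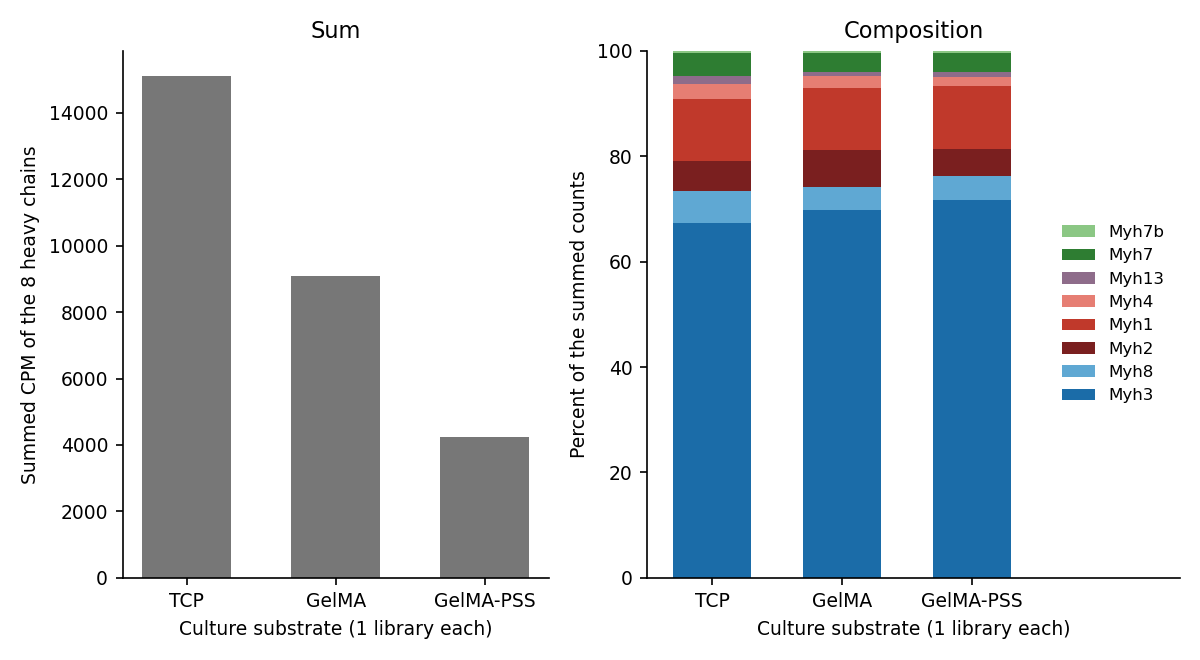
Share of each of the 8 heavy chains in their summed counts, in percent, for the TCP, GelMA and GelMA-PSS libraries. Myh3 takes 67.4%, 69.9% and 71.7% of the sum, and Myh1 is next with 11.8%, 11.7% and 12.1%.

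Set against Myh3 within each library, the other genes fell into different patterns. Myh1 kept pace with Myh3, with 17.5, 16.7 and 16.8 counts per 100 counts of Myh3 in TCP, GelMA and GelMA-PSS, and between the hydrogels its log2 change of 0.01 had a counting interval of -0.01 to 0.02. Myh7 did so between the hydrogels, with 5.15 counts per 100 in GelMA and 5.08 in GelMA-PSS, but was at 6.39 in TCP. Myh8 was at 8.88 in TCP and at 6.20 and 6.37 in the hydrogels.

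Myh2 and Myh4 were lower relative to Myh3 in GelMA-PSS than in either control. Myh2 had 8.61, 9.97 and 6.96 counts per 100 counts of Myh3 in TCP, GelMA and GelMA-PSS, and Myh4 had 4.21, 3.25 and 2.27. Between the hydrogels both changed by -0.52 on the log2 scale relative to Myh3, with counting intervals of -0.54 to -0.50 and -0.55 to -0.49. The ratio of Myh4 to Myh2 differed by less than counting error between the hydrogels, at 32.6 counts per 100 in each, and was 48.9 in TCP. Thus the adult fast chains did not move as 1 block, since Myh1 stayed with the embryonic chain and the IIa and IIb chains did not.

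Myh13 and the noncoding RNA took opposite courses between the controls. Myh13 had 2.22 counts per 100 of Myh3 in TCP, 1.19 in GelMA and 1.39 in GelMA-PSS, so that its low value was reached in plain GelMA. 2310065F04Rik had 0.956, 1.47 and 0.739, highest in GelMA. Relative to its neighbour Myh2 it had 11.1 counts per 100 in TCP, 14.8 in GelMA and 10.6 in GelMA-PSS, and relative to Myh7 it had 14.9, 28.6 and 14.5. GelMA stood above TCP and GelMA-PSS in both ratios. The noncoding RNA is shorter than the heavy chains, and with corrected values GelMA-PSS was below TCP by -0.43 on the log2 scale relative to Myh2 and by -0.45 relative to Myh7, against -0.06 and -0.04 from the counts.

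Levels of different genes can be ordered per kilobase of transcript. In TCP the order was Myh3 at 1688 CPM per kilobase, Myh1 at 293, Myh8 at 147, Myh2 at 144, Myh7 at 104, Myh4 at 71.3, Myh13 at 37.3, 2310065F04Rik at 35.7 and Myh7b at 10.4. In GelMA, Myh2 at 104 stood above Myh8 at 64.1, and 2310065F04Rik and Myh4, both at 34.4, could not be separated within counting error. In GelMA-PSS, 2310065F04Rik at 8.24 was again close to Myh13 at 6.95, under Myh4 at 11.5 and above Myh7b at 2.45. Myh3 and Myh1 held the first places and Myh7b the last in each library, and how far such neighbours would differ between cultures cannot be judged from single libraries.

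Along the row on chromosome 11, the difference between the controls was larger at each step from 2310065F04Rik to Myh13. The log2 ratio of GelMA to TCP was -0.06 for 2310065F04Rik, -0.47 for Myh2, -0.74 for Myh1, -1.05 for Myh4, -1.20 for Myh8 and -1.57 for Myh13. Myh3, at the head of the row, had -0.68 and is outside that order. For GelMA-PSS against GelMA the course along the row was different, from -2.01 for 2310065F04Rik to -0.82 for Myh13 with Myh1 at -1.06 between Myh2 at -1.58 and Myh4 at -1.57. This order was noticed after the values were seen and is given as a description of 6 genes.

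**Figure D5:**
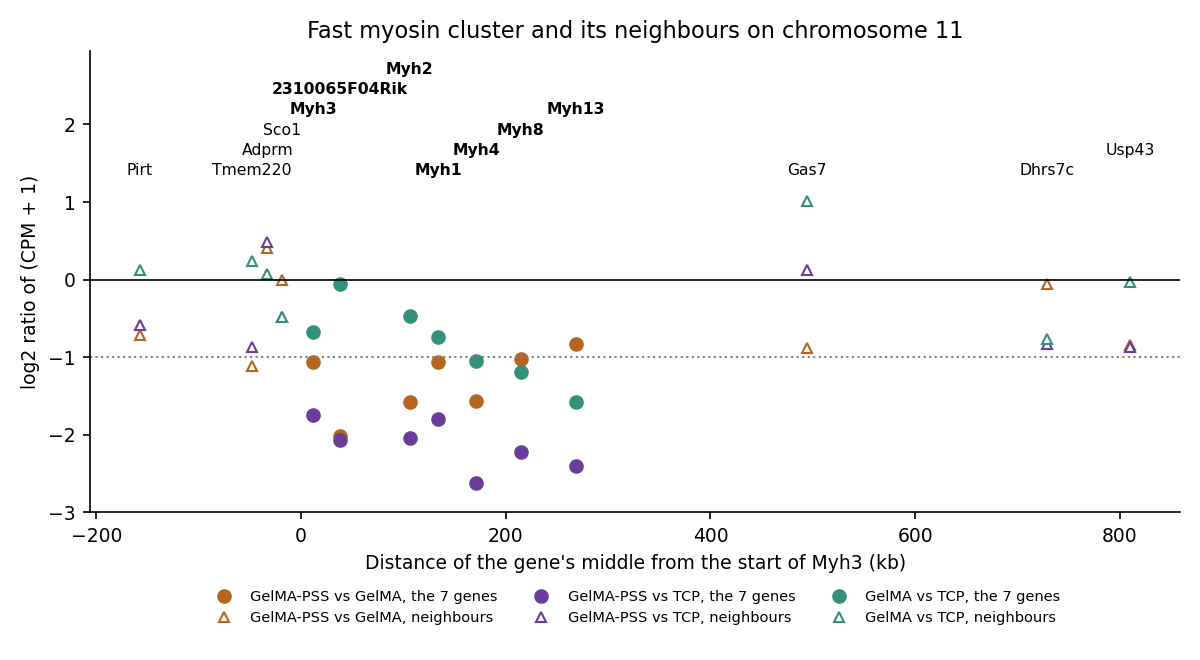
Log2 ratio of CPM + 1 for the 7 genes of the row on chromosome 11 (filled) and the 7 tested genes within 500 kb of it (open), against the distance of the middle of each gene from the start of Myh3 in kilobases. The green points (GelMA against TCP) go down from -0.06 to -1.57 from 2310065F04Rik to Myh13, and of the neighbours only Tmem220 is below -1, in GelMA-PSS against GelMA.

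The genes around the row were not uniformly lower. Of 11 other genes of the count data that are annotated within 500 kb, 7 were tested. Among these 7, 1 gene was lower by 2-fold or more in GelMA-PSS than in GelMA, against 2.33% of all genes. This was Tmem220, which lies upstream of Myh3, at 26.2, 31.1 and 13.9 CPM in TCP, GelMA and GelMA-PSS. Usp43 was at 4.16, 4.06 and 1.82 CPM and Pirt at 1.36, 1.56 and 0.563 CPM. None of the 7 was lower than TCP by 2-fold in GelMA-PSS, where 3.13% of all genes were. Gas7 was higher in GelMA than in TCP, at 6.38 against 2.66 CPM, where 0.706% of all genes were higher by 2-fold or more. After the length correction 2 of the 7 were lower than TCP by 2-fold or more, Tmem220 at -1.27 and Dhrs7c at -1.20. Of all genes, 2.41% were. Against GelMA only Tmem220 was past 2-fold, at -1.61, where 1.2% of all genes were lower, and between the controls Gas7 was inside it at 0.90. Over the 7 neighbours the median was -0.71 with GelMA as the control, -0.59 with TCP, and 0.08 between the controls. After the correction these medians were -0.51, -0.63 and 0.11.

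Heavy chain transcripts are similar in sequence, and reads from the shared stretches cannot be assigned to 1 gene. The share of 100-base windows found word for word in another gene was 1.15% for Myh3, 6.61% for Myh8, 9.17% for Myh2, 9.73% for Myh1, 3.85% for Myh4, 3.46% for Myh13 and 11.2% for Myh7, and was 0% for Myh7b and 2310065F04Rik. For Myh7 all 687 such windows were shared with Myh6, a heavy chain outside the 9 genes. Among the 8 heavy chains the closest pair was Myh2 and Myh1, with 89.3% identical bases in an alignment of the transcripts. For Myh7 an antisense transcript, Mhrt, overlaps 3666 bases and had 13301, 3671 and 3191 counts in TCP, GelMA and GelMA-PSS. Whether the counting used strand is not given, so that reads of Myh7 and Mhrt may be mixed.

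The sarcomeric light chains, which sit on the neck of the myosin head, were not lower as a group in GelMA-PSS than in GelMA before the length correction. Of 6 listed, 5 were tested, and against GelMA none was past 2-fold in either direction, with a median log2 ratio of -0.01. Of all genes, 2.33% were lower and 1.77% higher than GelMA. Myl2, the ventricular and slow regulatory chain, was at 41.8, 12.5 and 8.21 CPM in TCP, GelMA and GelMA-PSS. It was lower than TCP by 2-fold or more in both hydrogels, where 3.13% of all genes were in GelMA-PSS and 0.296% in GelMA. Myl4, the embryonic and atrial chain, was at 2867, 1574 and 1564 CPM, and Myl6b was at 703, 503 and 466 CPM. Mylpf, at 6926, 4853 and 7158 CPM, and Myl1, at 2539, 1637 and 2393 CPM, were higher in GelMA-PSS than in GelMA. Their log2 ratios against GelMA were 0.56 and 0.55, and -0.02 and 0.03 after the length correction. Light chain transcripts are short, between 0.729 and 1.08 kb, and after the length correction their median was -0.49 with GelMA as the control and -0.92 with TCP. Then Myl2 was past 2-fold against GelMA as well, where 1.2% of all genes were lower, and Myl4 against TCP, where 2.41% were. The corrected medians of the 8 heavy chains were -0.61 with GelMA as the control and -1.70 with TCP.

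Several partners of myosin in the thick filament and the M-band were lower in GelMA-PSS, fewer of them after the length correction. Of 9 listed, 8 were tested, and 3 were lower by 2-fold or more than GelMA and than both controls, among them Mybpc1 and Ttn. The shares over all genes were 2.33% and 1.16%. Mybpc1, the slow myosin-binding protein C, was at 42.6, 25.2 and 9.57 CPM in TCP, GelMA and GelMA-PSS. Ttn, the giant spring that spans the sarcomere, was at 3073, 2808 and 522 CPM. Its transcript is 107 kb long, and its log2 ratio against GelMA was -2.425 before the correction and 0.24 after it, against -1.25 for Mybpc1 after it. The longest of the 20 length bins has a median length of 9.31 kb and a median log2 ratio of -0.77 against GelMA. That is far from the length of Ttn, and how well the fit holds there was not tested. Against TCP, 6 of the 8 were lower by 2-fold or more, with the M-band proteins Myom1, Myom2 and Myom3 added, against 3.13% of all genes. After the correction 3 of the 8 were still past 2-fold against TCP, where 2.41% of all genes were, and Myom1 at -0.93, Myom2 at -0.84 and Ttn at -0.75 were not. Against GelMA 1 was, Mybpc1, where 1.2% of all genes were. The corrected median of the 8 was -0.38 with GelMA as the control and -0.89 with TCP, close to that of the light chains.

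Chaperones that fold the myosin motor were nearer to the level of the controls. All 7 listed genes were tested and none was past 2-fold against GelMA, where 2.33% of all genes were lower and 1.77% higher. Their median log2 ratio was 0.21. Unc45b, the muscle chaperone of the myosin head, was at 236, 162 and 107 CPM in TCP, GelMA and GelMA-PSS. It was the 1 gene of the list lower than TCP by 2-fold or more, where 3.13% of all genes were. The length correction ends this call, at -0.97 on the log2 scale. Smyd1, a methyltransferase needed for thick filament assembly, was at 151, 126 and 99.7 CPM, and Hsp90aa1, the chaperone with which Unc45b works, was highest in GelMA-PSS at 735 CPM, against 614 and 561 CPM.

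Of 19 factors known to act at heavy chain genes, 18 were tested and 3 were lower than both controls by 2-fold or more. The share over all genes was 1.16%. Mef2c, a partner of the MyoD family, was at 289, 181 and 81.0 CPM in TCP, GelMA and GelMA-PSS. Tead1, which binds MCAT elements, was at 143, 133 and 60.6 CPM in TCP, GelMA and GelMA-PSS, and Nfix, a factor of fetal muscle, at 186, 205 and 82.7 CPM. After the length correction none of the 18 was past 2-fold against GelMA, with -0.85 for Mef2c, -0.37 for Tead1 and -0.87 for Nfix. Of all genes, 1.2% were then lower than GelMA. Against TCP, Mef2c at -1.61 and Mef2d at -1.05 were lower by 2-fold or more, where 2.41% of all genes were. Myf5 was the 1 factor higher than TCP by 2-fold or more, at 36.5 against 13.9 CPM, where 3.72% of all genes were. It stayed so after the correction, at 1.07. Over the 18 factors the median was -0.39 with GelMA as the control and -0.33 with TCP. After the correction these medians were -0.14 and -0.24.

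The heavy chains of nonmuscle cells gave a different picture from the sarcomeric ones in level and size of difference. Myh9, the main nonmuscle chain, was at 1279 CPM in TCP, 1779 CPM in GelMA and 934 CPM in GelMA-PSS, thus highest in GelMA. Myh10 was at 110.0, 121 and 78.9 CPM, and Myh14 was at 3.50, 2.55 and 2.08 CPM. Myh11, the smooth muscle chain, did not reach 1 CPM, with 22, 29 and 17 counts. None of the 3 tested genes was past 2-fold in any comparison. Of all genes, 2.33% were lower and 1.77% higher in GelMA-PSS than in GelMA, 3.13% and 3.72% than in TCP, and 0.296% and 0.706% in GelMA than in TCP. With GelMA as the control the median of the 3 was -0.61 on the log2 scale, or -0.01 after the length correction. In the GelMA-PSS library the sum of the 8 sarcomeric chains, at 4233 CPM, was still above Myh9 as a single gene. Of these chains Myh3 alone, at 3037 CPM, was above Myh9 there, and Myh1 was next at 511 CPM.

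The markers of the lineage, given first without the length correction, did not move as the heavy chains did. Over 6 markers of skeletal muscle the summed level was 6993 CPM in TCP, 5835 CPM in GelMA and 6441 CPM in GelMA-PSS. Des, the muscle intermediate filament, was at 3299, 2863 and 3154 CPM, and Myog, the factor of early differentiation, at 1099.9, 895 and 1037 CPM. Cdh15 was at 669, 610 and 672 CPM, and Chrna1 at 1818, 1343 and 1423 CPM. These 6 had no common course, since Myod1 was at 94.3, 105 and 119 CPM and Myf5 at 13.9, 19.5 and 36.5 CPM. Both were highest in GelMA-PSS. After the length correction the log2 ratios of Myog were -0.09 against GelMA and -0.32 against TCP. Those of Myod1 were 0.04 and 0.23, and those of Myf5 were 0.53 and 1.07. No corrected values are given here for Des, Cdh15 and Chrna1. The 8 markers of other cell types summed to 2.99, 2.40 and 1.78 CPM. Among 5 genes of cycling cells none was past 2-fold against GelMA, where 2.33% of all genes were lower and 1.77% higher. Cdk1 and Ccnb1 were higher than TCP by 2-fold or more, with log2 ratios of 1.47 and 1.03, where 3.72% of all genes were. Ccna2 was at 31.2, 39.6 and 51.6 CPM in TCP, GelMA and GelMA-PSS. Before the length correction the list did not move one way. Mki67 was at 42.6, 74.7 and 42.9 CPM and Top2a at 76.5, 114 and 110.0 CPM, both highest in GelMA. After the correction Cdk1 was past 2-fold against both controls, where 0.666% of all genes were higher than GelMA and 2.01% higher than TCP. Ccnb1, at 0.86 against TCP, was not. On the corrected log2 scale Mki67 was at -0.03 and Top2a at 0.15 against GelMA. Against TCP all 5 were higher, from 0.55 for Mki67 to 1.59 for Cdk1. The part of cell cycle state in the heavy chain results was not tested.

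Among 9657 genes with 10 CPM or more in at least 1 library, the nearest to the median profile of the 9 genes over the ratios of GelMA and of GelMA-PSS to TCP was Mybpc1, at a distance of 0.03 on the log2 scale. It was followed by Padi2 at 0.16, Fras1 at 0.23, Srgap1 at 0.25 and Mylk4, a kinase of the myosin light chain kinase family, at 0.25. Mylk4 was at 67.0, 40.5 and 18.3 CPM in TCP, GelMA and GelMA-PSS. Nearest to 2310065F04Rik were Nav2 at 0.17, Ryr1, the calcium release channel, at 0.18 and Dst at 0.26. Ryr1 was at 1023, 868 and 248 CPM, close in the controls as the noncoding RNA is. The transcripts of these 3 genes are 11317 to 23201 bases long, and their mean corrected log2 ratios against the controls were -1.02, -0.86 and -0.66. The likeness rests on 3 libraries and 2 ratios that share the TCP library.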

How the data were processed

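RNA was sequenced from c2c12 cells on TCP, GelMA and GelMA-PSS, with 1 library for each. Unnormalized read counts for each symbol are what the authors deposited. The submitters' processing notes name TopHat, edgeR, mm10 and hg19 without a version or role, and the counting tool is not given in the sources used here. The paper's methods name a TruSeq kit and the labels a SMARTER kit. Lines with the same symbol were summed, for 35 symbols. CPM was taken with TMM factors of 1.02 (TCP), 1.04 (GelMA) and 0.943 (GelMA-PSS), computed with edgeR 4.0.16 in R 4.3.3. Genes that reached 1 CPM in any library are called tested, meaning compared, and called lower or higher at 2-fold on log2(CPM + 1). Intervals are at 95% (scipy 1.17.1, Python 3.11.15), and are exact binomial for folds and for shares of the heavy chain sum. Those for ratios of genes within a library use a normal approximation from the counts, and those for levels are Wilson binomial intervals. The paper's methods use FPKM, which was not used here.

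Positions, GC content and lengths are those of GENCODE vM21 (GRCm38), where 391 of 23238 symbols found no match. The correction subtracted successive loess fits (statsmodels 0.14.6, span 0.3). The 9 genes and the lists were chosen with earlier results of these data known. Named are all 9 genes, up to 3 genes of each list with the largest difference between GelMA-PSS and the mean of the controls, all nonmuscle heavy chains, the nearest 5 genes in profile to the 9 and the nearest 3 to 2310065F04Rik. Other genes, such as list members past the threshold, Des and Myog, were named after their values were seen, and some genes that the rule names are not reported here. The procedure was tested on simulated data. Promoters are RefSeq's, and protein sequences were not used here.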

Additional observations from a re-analysis of the deposited data

How the results depend on the processing

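All 162 log2 ratios of the 9 genes recomputed over 6 other settings (3 scalings, 2 pseudocounts and the loess correction for transcript length and GC) kept their sign. The 2 pseudocounts could not have changed a sign, since the same amount is added to both levels, and they bear on the size of the ratios alone. The 2 other filters change which genes are tested and not these ratios. With a threshold of 1.5-fold, 7 of the 9 genes were lower in GelMA than in TCP. After the loess correction, 3 genes were lower by 2-fold than GelMA and 3 than both controls. Per kilobase of transcript, the share of Myh3 in the 8 heavy chains was 67.6% in TCP, 70.1% in GelMA and 72.0% in GelMA-PSS, since its transcript is among the shorter of them. Among all tested genes, the count lower than both controls was 153 as reported, 261 with raw library totals, 77 with 5 CPM added, 946 at 1.5-fold and 82 after the correction. The count lower than GelMA was 307 as reported, 506 with raw totals, 158 with 5 CPM added, 1423 at 1.5-fold and 157 after the correction, and the count lower than TCP was 412 as reported, 196 with 5 CPM added and 1509 at 1.5-fold. Between GelMA and TCP it was 39 as reported, 63 with 0.5 CPM added, 15 with 5 CPM added and 279 at 1.5-fold. Raw totals moved the median log2 ratio of all genes against GelMA from 0.03 to -0.10, and the ratios of the 9 genes by at most -0.15. No paired analysis was possible because each substrate has 1 library, and for the same reason no library could be left out. The 9 genes had 2730 counts or more in each library, and depth limits the order of 2310065F04Rik and Myh4 in GelMA and the place of Myh7 at the 2-fold threshold between the controls, while the spread between cultures is unknown.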
